A study of Mus musculus with 11 samples.

Results

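Regulatory T cells (Tregs) are CD4 T cells defined by the transcription factor Foxp3, and they hold immune responses in check. Here the effect of deleting Srebf2 in them was averaged over Tregs from visceral adipose tissue (VAT) and spleen, each tissue with equal weight, to describe the genes that depended on Srebf2 in both. Of the 11 samples that the labels name, 10 were used, namely 3 WT and 3 KO samples of VAT and, of spleen, replicates 2 and 3 of each genotype. Spleen KO replicate 1 was not analysed here. Every sample came from male mice aged 25 weeks that carried the Cre allele Foxp3-YFPcre, so that the WT controls (Srebf2-WT/WT) expressed the same recombinase as the KO samples (Srebf2-flox/flox). The cells were sorted as live, CD3+, CD4+ and Foxp3+. In the KO samples Cre was driven by Foxp3, so the deletion was aimed at Tregs and not at other cells of the tissue. The labels do not say that the samples of a group came from separate mice, and the p-values therefore measure no more than the spread between the libraries, which can be technical.

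Srebf2 encodes SREBP2, a membrane-bound precursor of a transcription factor held in the endoplasmic reticulum by Insig proteins while cholesterol is plentiful. When sterols run low the precursor is carried to the Golgi and cut, and the released fragment enters the nucleus and binds sterol regulatory elements in the promoters of genes for cholesterol synthesis and uptake, often beside a CCAAT box bound by the factor NF-Y. Its close relative SREBP1, from another gene, acts more on fatty acid synthesis and shares part of these targets. Adipose Tregs differ from splenic Tregs in a programme that includes the lipid-sensing receptor Pparg, so the WT samples of the 2 tissues are in different states.

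Levels are RPKM, reads scaled to gene length and to the reads of the library, and 10429 of 10992 genes had at least 1 RPKM in at least 2 libraries and were tested. Differences are KO minus WT on the log2(RPKM + 1) scale, which understates the change of genes with low levels. They are given with the standard error and the Benjamini-Hochberg adjusted p of limma, and a gene was called when the adjusted p was under 0.05. Read depth was unknown, since the values are not counts, and genes at 1 RPKM or more numbered 9551 to 9774 per library. The spleen WT libraries differed most within their group, with a correlation across genes of 0.932 against 0.968 to 0.974 in the other groups. In bulk RNA, fewer cells of a type and less RNA per cell cannot be told apart.

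Few genes passed the threshold on the average over both tissues: 8 of 10429 (0.0767%), of which 7 were lower in KO (0.0671%) and 1 was higher (0.00959%). The 7 reported singly were Srebf2, the cholesterol enzymes Sqle, Cyp51 and Hmgcs1, the neighbouring genes Apobec3 and Cbx7, and the higher 1110032F04Rik. All 8 had the same sign in both tissues, and in all 8 every KO library lay on 1 side of every WT library in VAT and again in spleen. Among all tested genes, 1.39% lay lower in this way in both tissues and 1.68% lay higher. The 8 were selected on the same 10 libraries, so their signs and separation describe the genes and are no independent support for a shared effect. Without a threshold, 52.6% of all tested genes had the same sign in both tissues. At an unadjusted p under 0.05, 901 genes differed on the average (8.64%). In the same fit 44 genes were called in VAT alone (0.422%), and 7 of the 8 were among them. In spleen alone, with 2 libraries against 2, no gene was called (0%), the smallest limma adjusted p was 0.244, and 873 genes had an unadjusted p under 0.05.

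These counts depended on single libraries. On the average 5 genes were called without VAT WT replicate 2 or VAT KO replicate 2, 4 without VAT KO replicate 3, 14 without spleen WT replicate 2, 18 without spleen KO replicate 2 and 771 without spleen WT replicate 3, when the lone spleen WT library was assumed to vary like the other groups. In VAT 2 genes were called without WT replicate 1 or KO replicate 3, 5 without KO replicate 2 and 27 without WT replicate 3. The number called in VAT fell when either spleen KO library was left out and rose when either spleen WT library was. In spleen the number was 1403 without WT replicate 3, 13 without KO replicate 2 and 5 without WT replicate 2.

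The difference between the VAT and the spleen effect was tested for each gene as an interaction. No gene was called (0%), with a smallest limma adjusted p of 0.308 and 738 genes at an unadjusted p under 0.05. Over the 8 called genes the smallest adjusted interaction p was 0.692, and 1 of them, Srebf2, had an unadjusted p under 0.05. A difference between tissues was thus not shown for any of the 8, which does not show that the 2 effects were equal.

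**Figure D1:**
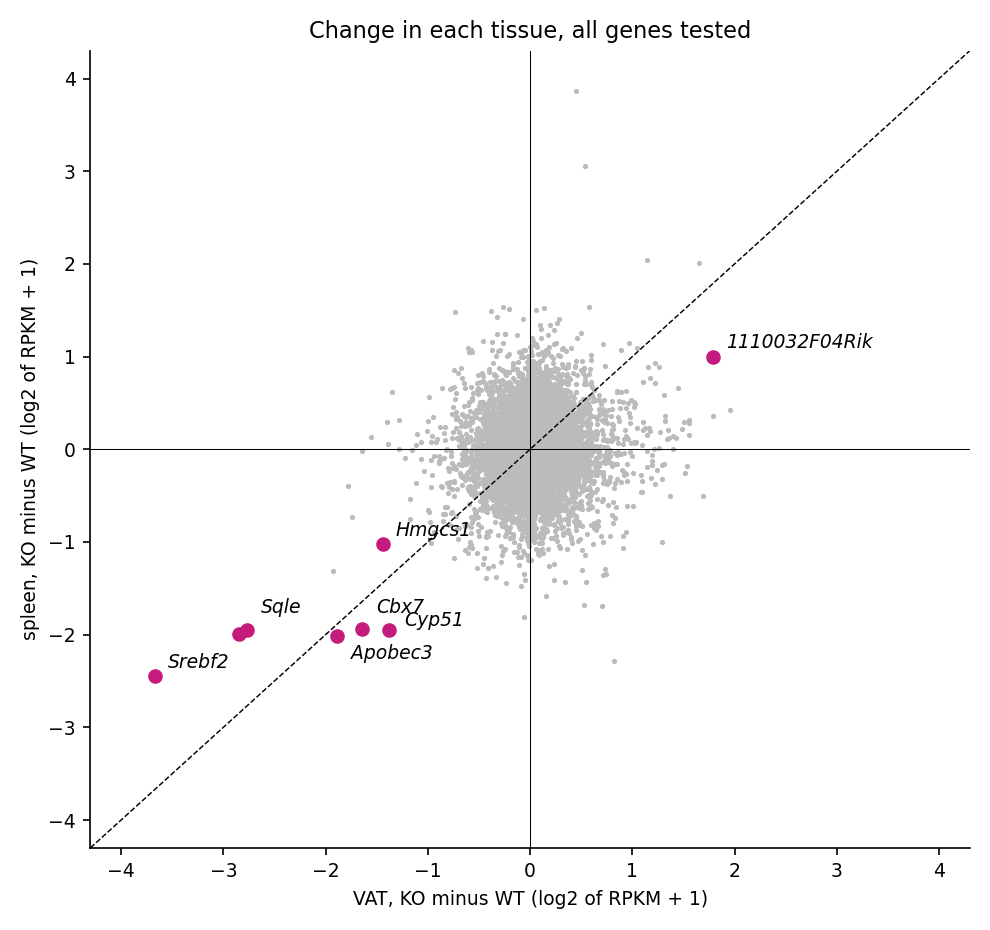
Each point is 1 of the 10429 tested genes, placed by its KO minus WT difference in VAT (horizontal) and in spleen (vertical), both in log2 of (RPKM + 1), with a dashed line where both are equal. The 8 genes called on the average of both tissues are magenta and 7 of them carry names, and all 8 lie in the quadrants where both tissues have the same sign.

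Srebf2 itself (Entrez 20788, chromosome 15, 82147269 to 82205379 in GRCm38.p6, the mm10 build) had the largest fall. In VAT it stood at 16.6, 15.6 and 30.5 RPKM in WT and at 0.263, 0.600 and 1.23 in KO. In spleen it stood at 10.51 and 23.2 RPKM in WT and at 2.59 and 1.59 in KO. Every KO library was below every WT library, and the KO mean was 3.33% of the WT mean in VAT and 12.4% in spleen. The averaged difference was -3.06 ± 0.26 (limma adjusted p = 0.000437), an 8.33-fold fall on this scale. With genotype labels permuted within each tissue, the exact two-sided test gave p = 0.0167, the smallest that the 120 arrangements allow. The VAT effect minus the spleen effect was -1.21 ± 0.52, with an unadjusted interaction p of 0.037 and an adjusted p of 0.692. A value per gene also counts exons outside the floxed segment, so it limits the share of intact Srebf2 only loosely. The gene used for the sort and for Cre, Foxp3, had an averaged difference of 0.04 ± 0.12 (limma adjusted p = 0.94, exact permutation p = 0.683).

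Among the enzymes of cholesterol synthesis, Sqle, Cyp51 and Hmgcs1 fell on the average. Hmgcs1 makes HMG-CoA for the mevalonate pathway, Sqle (squalene epoxidase) adds the first oxygen to squalene, and Cyp51 removes a methyl group from lanosterol. The promoter segments of Hmgcs1 and Cyp51 are shown because both genes fell, and that of Idi1, the isomerase that makes dimethylallyl diphosphate, because it came next among the enzymes. They are from the RefSeq promoter table of GRCm38.p6, each ends at the base before the annotated gene start and reads 5′ to 3′ on the strand of the gene. Capitals mark the letters TCACNCCAC, the core of a sterol regulatory element, and CCAAT, or their reverse complement (ATTGG for CCAAT). Hmgcs1 lies at chr13:119690171-119690350 on the plus strand, Cyp51 at chr5:4104698-4104777 on the minus strand, and Idi1 at chr13:8885526-8885605 on the plus strand.
Hmgcs1: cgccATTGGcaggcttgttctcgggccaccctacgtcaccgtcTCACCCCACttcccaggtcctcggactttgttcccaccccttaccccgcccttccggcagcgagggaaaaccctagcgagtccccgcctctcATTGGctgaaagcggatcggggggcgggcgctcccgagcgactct
Cyp51: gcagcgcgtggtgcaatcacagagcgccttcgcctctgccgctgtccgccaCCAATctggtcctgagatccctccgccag
Idi1: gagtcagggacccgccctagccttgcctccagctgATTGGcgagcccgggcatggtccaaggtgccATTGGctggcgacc

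In the Hmgcs1 promoter the sterol element core begins 137 bases before the gene start, and a CCAAT box on the reverse strand begins 45 bases before it. The letters were searched on both strands from 250 bases before to 50 after each start, in the 8440 tested genes that the table holds. TCACNCCAC was present in 1.41% of them (119 genes), in 1 of the 17 cholesterol enzymes with an entry, which is Hmgcs1, and in 1 of the 5 genes called lower with an entry. CCAAT was present in 43.2% of all (3647 genes), in 15 of the 17 cholesterol enzymes (88.2%) and in all 5 genes called lower. The E-box CACGTG was present in 12.2% of all, in 3 of the 17 enzymes and in 0 of the 5. Each motif was searched on its own, so that matches of different motifs can overlap, and a match is a description of the sequence and not of binding.

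Sqle (Entrez 20775, chromosome 15, 59315092 to 59331193) stood at 8.10, 8.84 and 10.8 RPKM in VAT WT and at 0.698, 0.190 and 0.640 in VAT KO. Its spleen levels were 2.29 and 7.46 RPKM in WT and at 0.197 and 0.552 in KO. All 5 KO libraries were under 1 RPKM and all 5 WT libraries were above it, and the KO mean was 5.51% of WT in VAT and 7.69% in spleen. The averaged difference was -2.36 ± 0.25 (limma adjusted p = 0.00151), a 5.14-fold fall, made of -2.77 in VAT and -1.95 in spleen. The interaction was -0.82 ± 0.49 (adjusted p = 0.767).

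Cyp51 (Entrez 13121, chromosome 5, 4080674 to 4104697) stood at 8.90, 9.62 and 17.4 RPKM in VAT WT and at 3.10, 4.28 and 4.10 in VAT KO. Spleen held 8.50 and 17.4 RPKM in WT and at 1.56 and 3.60 in KO. The groups were apart in both tissues, and the KO mean was 31.9% of WT in VAT and 19.9% in spleen. The averaged difference was -1.66 ± 0.25 (limma adjusted p = 0.026), a 3.17-fold fall. Cyp51 was the reported gene that passed on the average and in neither tissue alone, with -1.38 in VAT (adjusted p = 0.118) and -1.95 in spleen (adjusted p = 0.306). Its interaction was 0.57 ± 0.49 (adjusted p = 0.826).

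Hmgcs1 (Entrez 208715, chromosome 13, 119690351 to 119708260) stood at 9.22, 8.45 and 14.5 RPKM in VAT WT and at 3.65, 2.83 and 3.22 in VAT KO. In spleen it stood at 5.76 and 10.52 RPKM in WT and at 3.88 and 2.86 in KO. Again no KO library reached a WT library, with a KO mean of 30.2% of WT in VAT and 41.4% in spleen. The averaged difference was -1.23 ± 0.20 (limma adjusted p = 0.045), a 2.35-fold fall, of which -1.44 was seen in VAT and -1.02 in spleen, with an interaction of -0.41 ± 0.39 (adjusted p = 0.848).

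How firmly these calls stood differed between the genes. Srebf2, Sqle and Apobec3 passed with each of the 10 libraries left out in turn, with highest adjusted p-values of 0.00804, 0.0156 and 0.0188. Hmgcs1 passed only without spleen WT replicate 2 or 3, and with any other library left out its adjusted p lay between 0.0598 and 0.336. Cyp51 lost the call without VAT WT replicate 2 (0.0599) or 3 (0.0546), VAT KO replicate 1 (0.0741), 2 (0.0739) or 3 (0.0808), or spleen KO replicate 2 (0.0725). Their averaged differences stayed between -1.42 and -1.04 for Hmgcs1 and between -1.90 and -1.42 for Cyp51.

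The remaining cholesterol enzymes did not pass, but nearly all of them lay below 0. Of the 22 enzymes tested, 21 had a negative averaged difference (95.5%, against 5211 of the 10429 tested genes). Against 0.0671% of all tested genes called lower and 0.00959% called higher, 3 of the 22 enzymes were called lower and none higher. Their median was -0.49 (-0.54 in VAT and -0.48 in spleen), against 0.00 for all tested genes (0.02 in VAT and -0.03 in spleen). At an unadjusted p under 0.05, 12 of the 22 were lower and none higher, against 901 of 10429 genes in either direction. In 11 of the 22 every KO library lay below every WT library in both tissues, against 1.39% of all genes.

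Idi1 was closest to the threshold. It stood at 5.24, 4.56 and 8.44 RPKM in VAT WT and at 1.40, 0.830 and 0.994 in VAT KO, and at 2.80 and 4.998 in spleen WT and 1.39 and 2.47 in spleen KO. The groups did not overlap in either tissue, and the averaged difference was -1.24 ± 0.21 (limma adjusted p = 0.0627). Idi1 was called in VAT (-1.74, adjusted p = 0.0149), while its value in spleen was -0.73 (interaction -1.01 ± 0.42, adjusted p = 0.686). Without spleen WT replicate 2 or 3 its averaged call passed, with adjusted p-values of 0.0347 and 0.0198.

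Other enzymes had negative values in both tissues without passing. Fdps, which makes farnesyl diphosphate, had an averaged difference of -0.72 ± 0.15 (adjusted p = 0.174), with -0.83 in VAT and -0.62 in spleen. Msmo1, which removes methyl groups from the sterol ring, stood at -0.73 ± 0.16 (-0.78 and -0.69), and Nsdhl, the dehydrogenase of the same steps, stood at -0.72 ± 0.17 (-0.77 and -0.68). Sc5d, a late desaturase, had 24.4, 25.8 and 26.8 RPKM in VAT WT and 18.97, 15.4 and 20.002 in VAT KO, and 16.4 and 18.8 in spleen WT and 9.87 and 11.9 in spleen KO. Its groups were apart in both tissues, with an averaged difference of -0.57 ± 0.12 (adjusted p = 0.176). Fdft1, squalene synthase, had -0.82 ± 0.18 (adjusted p = 0.18), with -0.52 in VAT and -1.12 in spleen.

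Mvd, the decarboxylase of the mevalonate pathway, had groups apart in both tissues, with -0.45 in VAT and -0.37 in spleen (average -0.41 ± 0.13, adjusted p = 0.454). Hsd17b7, a ketosteroid reductase, had -1.36 in VAT and 0.62 in spleen (interaction -1.98 ± 0.58, unadjusted p = 0.00474, adjusted p = 0.577). In spleen it stood at 0.434 and 2.505 RPKM in WT replicates 2 and 3 and at 2.450 and 2.453 in KO. The positive spleen value thus rested on the low WT replicate 2. The acetyl-CoA acetyltransferase Acat2 had an averaged difference of -0.01, Lbr of 0.07, Mvk of -0.15, Erg28 of -0.18, Dhcr7 of -0.19, Ebp of -0.26, Pmvk of -0.32, Tm7sf2 of -0.34 and Lss of -0.42. None of these 11 passed the threshold.

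**Figure D2:**
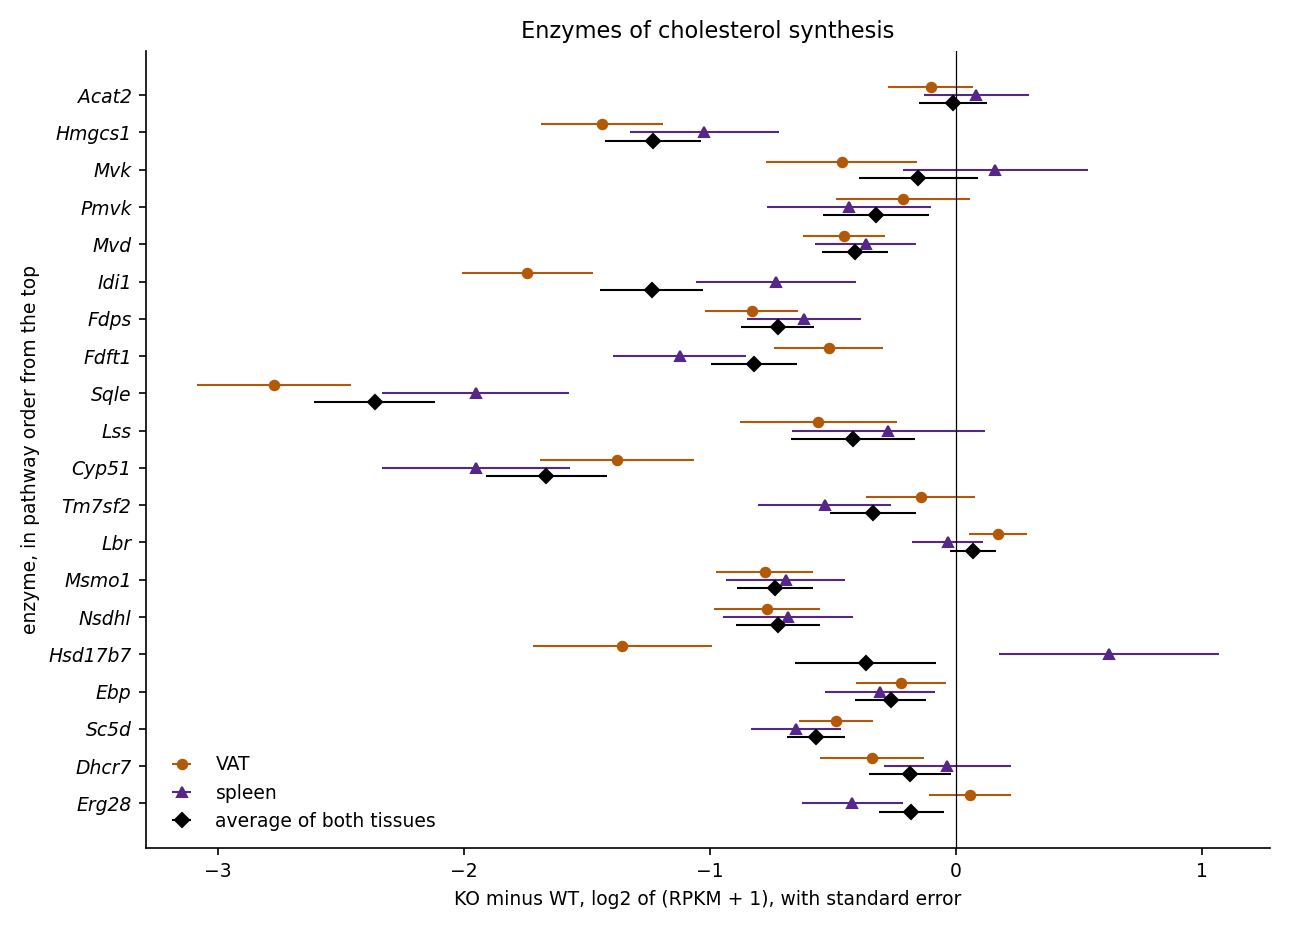
KO minus WT of 20 cholesterol enzymes in pathway order, in log2 of (RPKM + 1), for VAT (circles), spleen (triangles) and their average (diamonds), with bars of 1 standard error from limma. Sqle, Cyp51 and Hmgcs1 lie farthest left with Idi1, and Hsd17b7 lies on opposite sides of 0 in the 2 tissues.

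Outside the enzymes, the sterol uptake and SREBP control genes lay closer to 0 as a list. Of 24 tested, 1 was called lower and none higher, against 0.0671% and 0.00959% of all tested genes. Below 0 lay 14 of the 24, and the median of the list was -0.07 (-0.08 in VAT and -0.10 in spleen). At an unadjusted limma p under 0.05, 5 of the 24 were lower and 2 higher (29.2% together), against 8.64% of all tested genes. Insig1, which retains the SREBP precursor and is itself a sterol-regulated gene, stood at 14.4, 13.3 and 24.5 RPKM in VAT WT and 12.1, 6.63 and 6.49 in VAT KO, and at 8.34 and 9.54 in spleen WT and 3.39 and 4.53 in spleen KO. The groups were apart in both tissues, and the differences were -0.97 in VAT and -1.01 in spleen, but the average of -0.99 ± 0.21 did not pass (adjusted p = 0.176). Stard4, a sterol carrier, had an averaged difference of -0.46 ± 0.16 (adjusted p = 0.459) with -0.45 and -0.48. Rnf145, a sterol-responsive ubiquitin ligase, had -0.33 ± 0.11 (adjusted p = 0.458), and Gramd1a, a sterol transporter between membranes, had 0.37 ± 0.14 (adjusted p = 0.494). Of 8 tested genes of sterol efflux and the oxysterol receptors LXR, none was called in either direction, against 0.0767% of all tested genes. Their median was 0.03.

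Fatty acid synthesis lay between these lists. Of 17 tested genes, 15 were below 0 (88.2%) and none was called, with a median of -0.27 (-0.41 in VAT and -0.19 in spleen). Mid1ip1, an activator of acetyl-CoA carboxylase, stood at 19.6, 13.5 and 16.9 RPKM in VAT WT and 12.9, 8.33 and 10.006 in VAT KO, and at 10.9 and 7.40 in spleen WT and 4.85 and 4.38 in spleen KO. Its groups were apart in both tissues, and its averaged difference was -0.73 ± 0.16 (adjusted p = 0.208). Acsl3, which activates fatty acids with coenzyme A, had -0.83 ± 0.23 (adjusted p = 0.361), and Hacd3, a dehydratase of chain elongation, had -0.30 ± 0.10 (adjusted p = 0.458). Aacs, which makes acetoacetyl-CoA, was called in VAT at -0.91 (adjusted p = 0.0259) and had 0.12 in spleen, with an interaction of -1.03 ± 0.24 (unadjusted p = 0.000975, adjusted p = 0.53). The isoprenoid and prenylation genes, which branch off the mevalonate pathway, had a median of -0.05 over 16 tested, with none called.

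**Figure D3:**
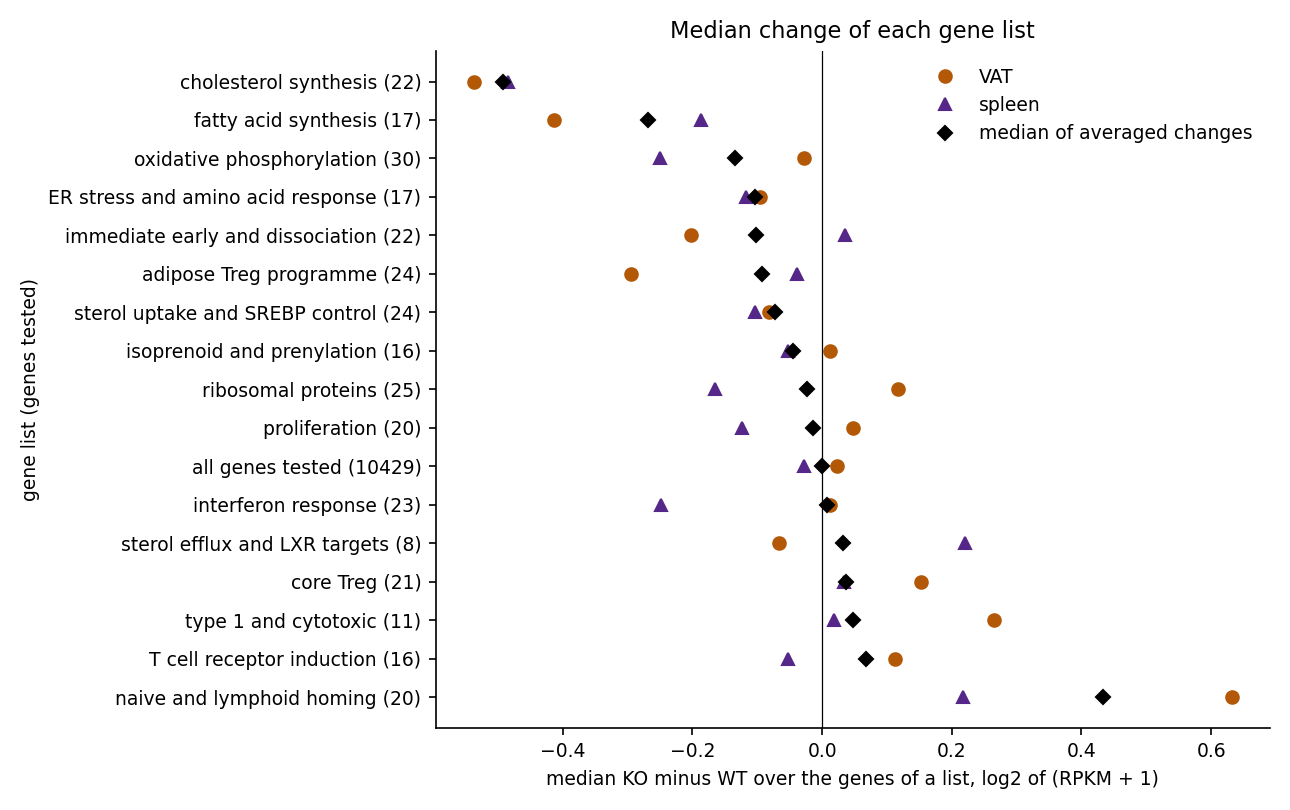
Median KO minus WT of the gene lists other than cell type markers, in log2 of (RPKM + 1), in VAT (circles), spleen (triangles) and of the averaged differences (diamonds), with the number of tested genes beside each name. Of the lists drawn, cholesterol synthesis has the lowest median in both tissues, and naive and lymphoid homing has the highest averaged median.

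Apobec3 and Cbx7 were called lower and lie together on the chromosome of Srebf2. Apobec3 encodes a cytidine deaminase that restricts retroviruses, and Cbx7 a chromodomain subunit of Polycomb complexes. Apobec3 (Entrez 80287, chromosome 15, 79892058 to 79918218) stood at 16.2, 14.7 and 24.8 RPKM in VAT WT and at 4.58, 4.53 and 3.44 in VAT KO. The spleen levels were 15.4 and 31.9 RPKM in WT and at 4.71 and 4.81 in KO. The KO libraries were close to each other in both tissues and all below WT, with a KO mean of 22.5% of WT in VAT and 20.1% in spleen. The averaged difference was -1.95 ± 0.20 (limma adjusted p = 0.00151), with -1.89 in VAT and -2.01 in spleen and an interaction of 0.12 ± 0.41 (adjusted p = 0.957).

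Cbx7 (Entrez 52609, chromosome 15, 79915804 to 79971143) stood at 17.7, 17.4 and 31.0 RPKM in VAT WT and at 6.81, 5.98 and 5.59 in VAT KO. In spleen it stood at 9.70 and 26.5 RPKM in WT and at 4.01 and 2.96 in KO. The groups were apart in both tissues, and the averaged difference was -1.79 ± 0.25 (limma adjusted p = 0.016), a 3.47-fold fall, with an interaction of 0.30 ± 0.49 (adjusted p = 0.908). Leaving out VAT KO replicate 2 (adjusted p = 0.0548) or 3 (0.0573), or spleen KO replicate 3 (0.117), ended the call. Cbx7 and Apobec3 overlap by 2415 bases in the annotation. The library kit does not mark the strand, so reads from the shared stretch cannot be told apart, and the 2 falls are not independent measurements there.

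Relative to the start of Srebf2, Apobec3 starts at -2.255 Mb and Cbx7 at -2.231 Mb. Within 5 Mb of Srebf2, and without it, 111 genes were tested, of which 2 were called lower, none was called higher, and the median was 0.00. Over all tested genes 0.0671% were called lower and 0.00959% higher. At an unadjusted p under 0.05, 13 of the 111 were lower and 7 higher (18% together), against 8.64% of all tested genes. Among them Cbx6, a Polycomb gene at -2.323 Mb, had an averaged difference of -0.81 ± 0.21 (adjusted p = 0.288), and Ift27, at -3.988 Mb, had -0.72 ± 0.16 (adjusted p = 0.205). Both were chosen after their values were seen. On the rest of chromosome 15, 302 genes were tested and Sqle, at -22.832 Mb, was the 1 called, against 0.0767% of all tested genes. The part of chromosomal position in the falls of Apobec3 and Cbx7 was not tested.

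**Figure D4:**
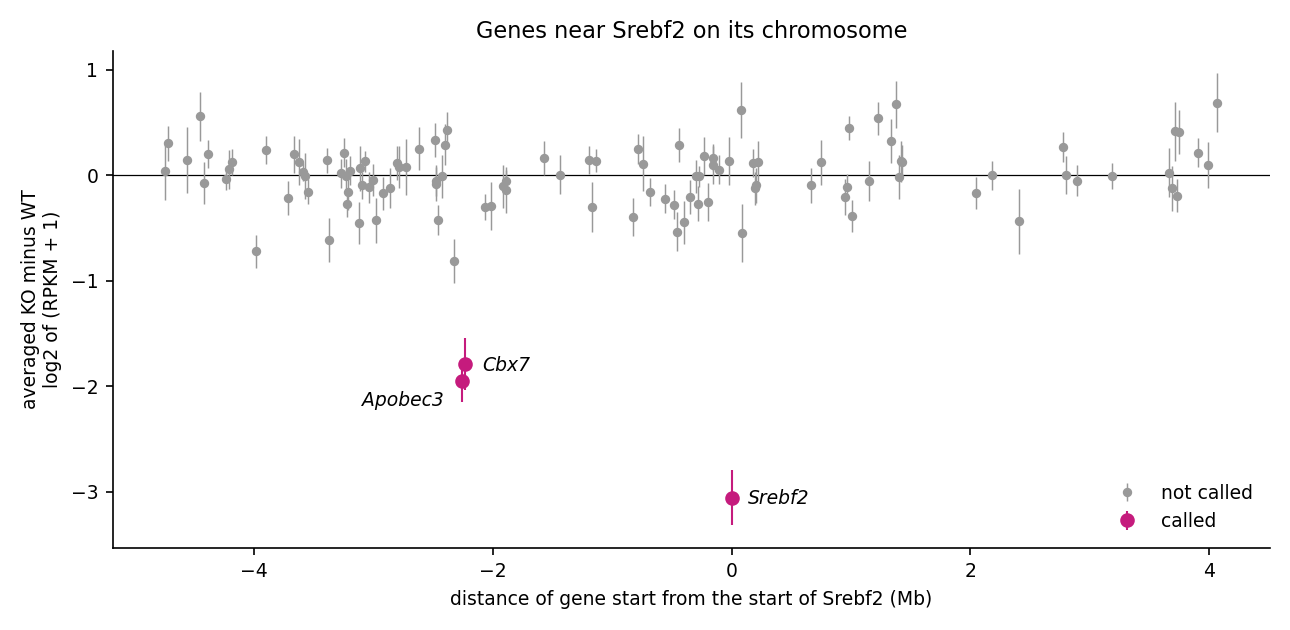
Averaged KO minus WT in log2 of (RPKM + 1), with 1 standard error from limma, of the tested genes within 5 Mb of Srebf2, by the distance of their starts from its start in Mb. Srebf2, Apobec3 and Cbx7 are the called genes (magenta), and the others (grey) lie nearer to 0.

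One gene, 1110032F04Rik (Entrez 68725, chromosome 3, 68869586 to 68872163), was called higher. It stood at 0.015, 0.099 and 0.580 RPKM in VAT WT and at 3.21, 2.26 and 4.31 in VAT KO. In spleen it stood at 7.64 and 5.88 RPKM in WT and at 16.2 and 12.8 in KO. It was higher in spleen than in VAT in both genotypes, and every KO library lay above the WT libraries of its tissue. The averaged difference was 1.39 ± 0.19 (limma adjusted p = 0.016), with 1.79 in VAT and 1.00 in spleen, and an interaction of 0.79 ± 0.39 (adjusted p = 0.713). The call was lost without VAT WT replicate 1 (0.0511) or 2 (0.0599), VAT KO replicate 3 (0.0573), or spleen KO replicate 2 (0.0598) or 3 (0.0657).

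**Figure D5:**
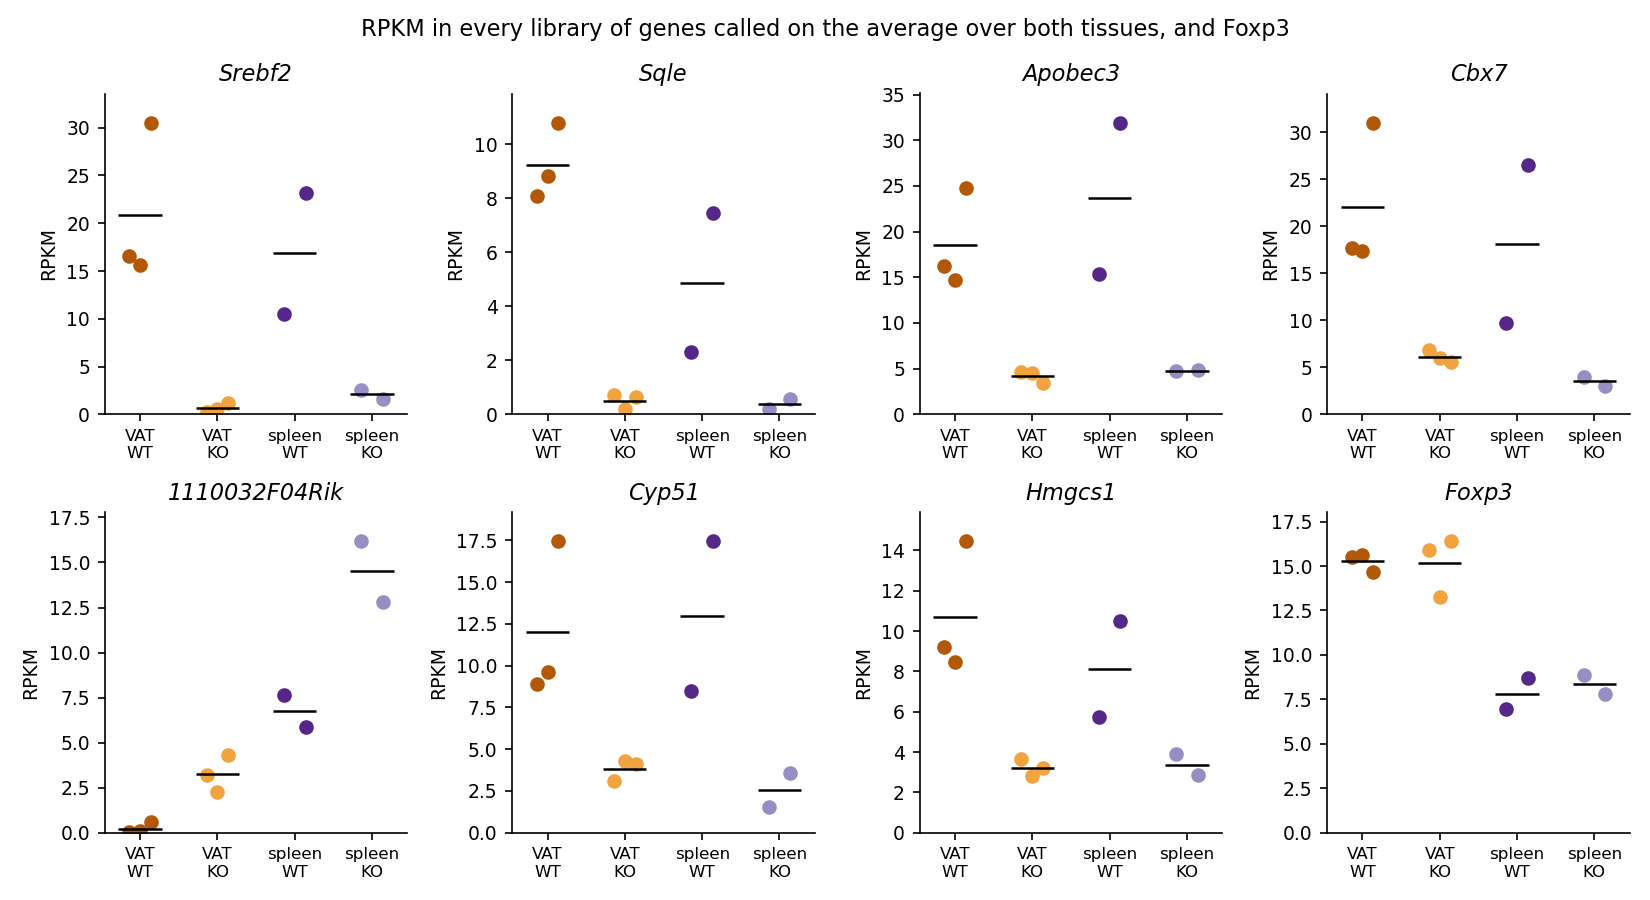
RPKM in each library (points) and group mean (lines) for the 7 genes reported singly and for Foxp3, by tissue and genotype. In the 6 falling genes every KO point lies under the WT points of its tissue, in 1110032F04Rik every KO point lies above them, and the Foxp3 groups overlap.

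Just outside the threshold, beside Idi1, lay 2 genes that were picked after their values were seen. Asah1, the acid ceramidase of lysosomes, stood at 16.9, 20.9 and 18.2 RPKM in VAT WT and 10.6, 11.5 and 10.4 in VAT KO, and at 9.07 and 9.84 in spleen WT and 5.85 and 4.86 in spleen KO. Its groups were apart in both tissues with differences of -0.73 in VAT and -0.72 in spleen, and the average was -0.72 ± 0.12 (limma adjusted p = 0.0598). Asah1 overlaps Frg1 in the annotation by 8464 bases, and reads there cannot be told apart. Tent5c, a poly(A) polymerase, stood at 6.49, 8.49 and 8.90 RPKM in VAT WT and 16.5, 20.6 and 19.7 in VAT KO, and at 15.4 and 30.1 in spleen WT and 39.6 and 42.2 in spleen KO. Its KO libraries were all higher than WT in each tissue, with an average of 1.02 ± 0.17 (adjusted p = 0.0598).

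The genes called in VAT were then read in the spleen libraries, whose means that call did not use, although the spread was shared. Of 12 genes lower in VAT KO, 10 were also below 0 in spleen and 8 had spleen KO below spleen WT in every library, against 17.5% of all tested genes. Their median was -1.69 in VAT and -1.17 in spleen, and 6 of them were called on the average. Of 32 genes higher in VAT KO, 21 were above 0 in spleen and 8 had spleen KO above spleen WT in every library, against 15% of all tested genes. Their median was 1.22 in VAT and 0.12 in spleen, and 1 of them was called on the average. Over all tested genes, 53.2% were lower and 46.8% higher in spleen KO.

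No Treg list held a gene called on the average, against 0.0767% of all tested genes. The naive and lymphoid homing list had 18 of 20 tested genes above 0, with medians of 0.43 on the average, 0.63 in VAT and 0.22 in spleen. At an unadjusted limma p under 0.05, 10 of the 20 were higher and none lower, against 8.64% of all tested genes in either direction. In both tissues 16 of the 20 were above 0. In 4 of the 20 every KO library lay above every WT library in both tissues, against 1.68% of all tested genes. Tcf7, the transcription factor TCF-1 of naive and memory-like T cells, stood at 25.6, 19.8 and 22.5 RPKM in VAT WT and 46.6, 82.5 and 82.3 in VAT KO, and at 143 and 220 in spleen WT and 208 and 224 in spleen KO. Its groups were apart in VAT, where it was called (1.56, adjusted p = 0.011), and overlapped in spleen (0.28), with an average of 0.92 ± 0.17 (adjusted p = 0.124) and an interaction of 1.27 ± 0.35 (unadjusted p = 0.00306, adjusted p = 0.543). The chromatin organiser Satb1 was higher in every KO library of both tissues, with 1.02 in VAT and 0.51 in spleen, without passing (average 0.76 ± 0.19, adjusted p = 0.296). The kinase Txk had 1.42 in VAT and 0.13 in spleen.

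The medians of the other Treg lists were closer to 0. Among 21 core Treg genes the median was 0.04. At an unadjusted limma p under 0.05, 6 of the 21 were higher and none lower (28.6%), against 8.64% of all tested genes. Lrrc32, the surface anchor of latent TGF-beta, had 1.56 in VAT (called, adjusted p = 0.0143) and 0.15 in spleen. Its average was 0.86 ± 0.18 (adjusted p = 0.179), with an adjusted interaction p of 0.543. The adipose Treg programme had a median of -0.09 over 24 genes, with -0.29 in VAT and -0.04 in spleen. Of these 24, 5 were lower and none higher at an unadjusted limma p under 0.05 (20.8%). Pparg stood at 41.5, 38.6 and 33.6 RPKM in VAT WT and 25.4, 22.6 and 25.8 in VAT KO, and at 1.81 and 1.12 in spleen WT and 0.596 and 1.00 in spleen KO. The groups of Pparg were apart in both tissues, but the average of -0.53 ± 0.14 did not pass (adjusted p = 0.323). Nfil3, another factor of this programme, had its larger value in spleen, with -0.11 in VAT and -1.03 in spleen (interaction 0.92 ± 0.25, adjusted p = 0.543).

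In lists of general cell state no gene was called on the average, against 0.0767% of all tested genes. The medians of the averaged differences were 0.07 for 16 T cell receptor induced genes, -0.01 for 20 proliferation genes, 0.01 for 23 interferon response genes, 0.05 for 11 type 1 and cytotoxic genes, -0.10 for 17 genes of the ER stress and amino acid response, -0.13 for 30 genes of oxidative phosphorylation and -0.02 for 25 ribosomal protein genes. In oxidative phosphorylation 27 of the 30 genes (90.0%) lay below 0, with medians of -0.03 in VAT and -0.25 in spleen. At an unadjusted limma p under 0.05, 1 of the 30 was lower and none higher (3.33%), against 8.64% of all tested genes. Cox5a, Ndufb10, Ndufv2 and Sdha of this list were each highest among the spleen libraries in WT replicate 2. Leaving out that library moved their averaged differences from -0.298, -0.232, -0.316 and -0.170 to -0.065, -0.061, -0.121 and -0.096. The other genes of the list were not read this way. The interferon list had medians of 0.01 in VAT and -0.25 in spleen. The immediate early and dissociation list had a median of -0.10 over 22 genes with none called. At an unadjusted limma p under 0.05, 4 of the 22 were lower and 6 higher (45.5% together), against 8.64% of all tested genes. The heat shock genes of this list were uneven between spleen libraries. The highest averaged difference of all tested genes was that of Hspa1b (2.16 ± 0.52, limma adjusted p = 0.249). Hspa1b stood at 0.156 and 1.23 RPKM in spleen WT and at 5.57 and 82.3 in spleen KO, so that KO replicate 3 stood apart, and at 230 to 516 RPKM in VAT. Its part in the other differences was not tested. When KO replicate 3 of spleen was dropped, the averaged difference was -2.94 for Srebf2 and -2.46 for Sqle. It was -1.15 for Hmgcs1, -1.71 for Cbx7 and 1.47 for 1110032F04Rik, against -1.23, -1.79 and 1.39 with all libraries. These are effect sizes only, since that group then had no replicate, and they do not test the part of Hspa1b.

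The markers of T and Treg cells were all present (8 of 8), summing to between 968 and 1220 RPKM in every library, and none was called on the average. Of the other cell types, the table holds 9 of 15 B cell markers, whose sum ranged from 67.9 to 251 RPKM in VAT WT, 63.7 to 137 in VAT KO, 107 to 143 in spleen WT and 114 to 155 in spleen KO. It holds 4 of 16 myeloid markers, with sums of 12.3 to 15.2 RPKM in VAT WT, 20.2 to 45.6 in VAT KO, 179 to 240 in spleen WT and 183 to 186 in spleen KO. The myeloid sum was higher in VAT KO than in VAT WT and not in spleen, and its part in the averaged differences was not tested. Most of the sum was Ctss, a protease that was called in VAT (1.31, adjusted p = 0.0449) and had -0.16 in spleen. Adgre1 and Fcer1g, the other myeloid markers tested, had overlapping groups in VAT (0.01 and 0.13) and lower levels in both spleen KO libraries than in spleen WT (-0.63 and -0.71), without passing. Markers of CD8 and NK cells (3 of 10), neutrophils (1 of 10), adipocytes (2 of 11) and stroma (1 of 11) were read as well. None was called on the average, against 0.0767% of all tested genes. The CD8 and NK sum was 74.7 to 191 RPKM in VAT WT, 104 to 129 in VAT KO, 36.3 to 61.4 in spleen WT and 35.0 to 35.3 in spleen KO. Of these, Nkg7 had 0.24 in VAT and -0.81 in spleen, where the groups were apart. The neutrophil marker Mmp9 stood at 129 to 217 RPKM in VAT WT, 112 to 135 in VAT KO and at most 4.92 in spleen. The stroma and endothelium marker, Pecam1, stood at 5.12, 4.39 and 7.37 RPKM in VAT WT and at 8.80, 11.8 and 10.7 in VAT KO, without overlap, and at 15.9 and 31.4 in spleen WT and 34.9 and 19.3 in spleen KO. Its averaged difference was 0.50 ± 0.22 (adjusted p = 0.557), and its part in the other differences was not tested. Markers of red cells (0 of 8) were not analysed here.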

How the data were processed

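RNA of sorted Tregs was measured by bulk RNA sequencing. Per the labels' protocols, cDNA was made with SMART-seq v4 from Quick-RNA MicroPrep RNA and libraries with Nextera XT. STAR and mm10 are named by the submitters' processing notes. The sources used here do not name the counter, the gene models or the scaling denominator. Per the file headers, the deposited table gives RPKM values by gene and library. The 10 columns list 128 values at 0. Columns were matched to samples by name, and 1 column of per-sample values that matched no label was not used.

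Symbols and coordinates (counted from 1) came from a RefSeq table of GRCm38.p6, which matched 10987 identifiers, and it restored 15 symbols that stood as dates. On log2(RPKM + 1), for genes with at least 1 RPKM in at least 2 columns, limma 3.58.1 in R 4.3.3 was fitted with 4 group means (trend on, robust off, 6 residual and 6.44 prior degrees of freedom). The contrast was 0.5 times the VAT plus 0.5 times the spleen difference, two-sided, and a call required an adjusted p (Benjamini-Hochberg, over all genes tested) under 0.05. The interaction is the VAT minus the spleen difference. The fit was tested on simulated data. Figures were drawn with matplotlib 3.10.9.

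The members, the 24 gene lists (421 members) and the tests were chosen with earlier results of these data known. Named were Srebf2, Foxp3, up to 14 called genes in each direction by size whose higher genotype averaged 5 RPKM or more in a tissue, the 2 to 4 members of a described list with the smallest p, the cholesterol enzymes, and called genes near Srebf2. Genes named outside this rule are said to be so. Results of 3 genes are not reported singly here, but the counts include them. Alternatives were other pseudocounts, filters, scalings, weights, spreads and thresholds, replicate blocks and each library left out.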

Additional observations from a re-analysis of the deposited data

How the results depend on the processing

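No averaged difference of a called gene changed sign under any alternative. With a pseudocount of 0.1 the median of the cholesterol enzymes was -0.642. The number of genes called on the average was 5 with sample weights and 3 in a test against a 1.5-fold change (Srebf2, Sqle and Apobec3), all 3 of them lower, and the genes shared by both tissues by sign and without overlap were likewise 5 and 3. Of the VAT-called genes, 31 kept their sign in spleen, against 13 with a pseudocount of 5, 53 with sample weights and 2 in the 1.5-fold test, where the number called in VAT changed too. Of the called neighbours of Srebf2, 1 passed the 1.5-fold test. With each library left out, the genes called numbered 4 to 771, those called lower 4 to 315, the shared genes 4 to 232, the VAT-called genes of the same sign in spleen 2 to 37 and the called neighbours 1 to 12, and the median of the cholesterol enzymes was -0.652 to -0.447. The highest counts but that of VAT-called genes came without spleen WT replicate 3. The causes were not tested.

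Hmgcs1 lost its call with pseudocounts of 0.1 (adjusted p = 0.058) and 5 (0.0696), with no filter (0.0617) and with sample weights (0.0817). Sample weights also ended the calls of Cyp51 (0.0635) and 1110032F04Rik (0.0748), and the latter was lost with a pseudocount of 0.1 (0.0936). With the replicate number as a replicate block in each tissue, 8 genes were called, 7 of them among the 8 (Hmgcs1 0.117), and with 1 replicate block over both tissues 9 were called (Hmgcs1 0.0738, Idi1 0.0431). The averaged Srebf2 difference in these paired fits was -3.06 as without a block (adjusted p = 0.00113 and 0.000566). Deviations of same-numbered KO and WT libraries had correlations of -0.0917, 0.0490 and -0.147 in VAT and -0.0612 in spleen. With 2 libraries per spleen group, the other number gave the same value with the sign reversed (0.0612). In VAT the highest correlation of each WT library with a KO library of another number was 0.220, 0.0326 and 0.0986. The same number thus gave the higher value for replicate 2 and not for replicates 1 and 3. The spleen values mirror each other, and these few values cannot decide whether KO and WT were paired by number within a tissue. Whether a number marks a shared mouse or batch was not tested. Whether a number links the 2 tissues was not tested by these correlations. Over all named genes, 2207 results kept direction and side of the threshold, 45 passed where the reported value did not, and 35 no longer passed. The unknown depth and the 2 libraries per spleen group limit the precision.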

Other observations

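The spread within the WT groups ran in 1 direction for the genes called lower, Apobec3 and Cbx7 included, and for most of the cholesterol enzymes. In all 7 genes called lower, WT replicate 3 was the highest WT library in VAT and again in spleen, which held for 17.6% of all tested genes. These 7 were selected on the same libraries. Its level lay above the other WT libraries of its tissue by a median of 0.65 (log2) over the 7 genes in VAT and of 1.07 in spleen, against -0.04 and 0.02 over all tested genes. Of the 22 cholesterol enzymes, 14 were highest in WT replicate 3 in both tissues (63.6%), with medians of 0.21 in VAT and 0.39 in spleen, and 1 was highest in WT replicate 2 in both. Srebf2, at 30.5 RPKM in VAT WT replicate 3 against 16.6 and 15.6 and at 23.2 in spleen WT replicate 3 against 10.51, was among the 7. In the KO libraries, 4 of the 22 enzymes were highest in replicate 3 in both tissues and 5 in replicate 2. The labels do not say whether a number marks the same mouse in both tissues, this pattern was chosen after the values were seen, and no cause was tested.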
